A study of Mus musculus with 11 samples.

Results

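Untreated, differentiated 3T3-L1 adipocytes were described through the 3 control arrays among the 11 Affymetrix mouse arrays of a study of insulin resistance. 3T3-L1 is a mouse embryonic fibroblast line that is grown as preadipocytes and turned into fat cells in culture. Genes were ranked by their mean linear intensity over the 3 control arrays, using for each gene the brightest of its probe sets, which are the groups of short probes that share a target. Only probe sets annotated with exactly 1 gene symbol were used, and this gave 18193 ranked genes from 45101 probe sets. The control arrays are labelled as having received no treatment. The other arrays came from the same line after 4 additions of 10 nM insulin (chronic insulin, CI, n = 2), after 2 ng/ml of tumour necrosis factor alpha for 4 days (TNF, n = 3) or after 20 nM dexamethasone, a synthetic glucocorticoid, for 8 days (DEX, n = 3). The protocol mentions a 0.01% ethanol carrier for dexamethasone, and whether the control cells received it is unclear. All cells were processed on the same day after differentiation, and 3 µg of total RNA went into each labelling. The series' design text speaks of experimental replicates without naming separate cultures, so errors and p-values measure the spread between these arrays, which may be technical.

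White adipocytes store fatty acids as triglyceride in a large lipid droplet and release them again by lipolysis when adrenergic signals raise cyclic AMP. They are also secretory cells, which release hormones such as adiponectin, enzymes such as lipoprotein lipase and the proteins of their own extracellular matrix. The program is driven by the nuclear receptor PPAR gamma together with the C/EBP transcription factors, and its hallmark genes code for fatty acid binding, lipid droplet and lipogenic proteins.

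An intensity is the brightness of a probe set in arbitrary linear units, as deposited. The array medians lay between 124.5 and 129.5 over all 11 arrays, and the ranks of probe sets in any pair of control arrays had a Spearman correlation of 0.997 to 0.998 (a description over probe sets, which share the array). The 3' to 5' ratio of the control probe sets, a sign of RNA quality, lay at 1.07 to 1.10 (Gapdh) and 1.49 to 1.58 (actin) in the control arrays. Probe sets bind their targets with different strength, so the ranks are an order of array signals, and a brighter gene need not have more transcripts than a dimmer one. Of the 9010 genes with more than 1 probe set, the brightest exceeded the dimmest by a median of 4.18-fold. Among the 100 brightest genes, 69 had more than 1 probe set, the median ratio was 13.4-fold and 36 exceeded 10-fold. Probe sets whose name ends in _x_at or _s_at can bind related transcripts, and 27 of the 100 brightest genes were ranked by such a probe set.

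The brightest named gene was Adipoq, which codes for the adipocyte hormone adiponectin, at 22390.5, 23388 and 22705 in control replicates 1, 2 and 3 (mean 22828 ± 510.2, SD, n = 3). Fabp4, the fatty acid binding protein of adipocytes, read 22219, 22993 and 22686 (22632 ± 389.7). Scd1, the stearoyl-CoA desaturase that makes monounsaturated fatty acids, was at rank 5 with 21637, 22248 and 22239 (22041 ± 350.3). The arrays of Adipoq and Fabp4 overlapped, so the order of these neighbours is within the spread between arrays, while the highest Scd1 array lay below every Adipoq array. Lpl, the lipoprotein lipase that frees fatty acids from circulating triglyceride, stood at rank 10 with 19198, 19636 and 19449. Rarres2, which codes for the adipokine chemerin, was at rank 21 with 16848, 16469 and 16275. In RefSeq's mouse annotation (GRCm38.p6) Adipoq lies at chr16:23146536-23157968, Fabp4 at chr3:10204342-10208616, Scd1 at chr19:44394450-44407709 and Lpl at chr8:68880555-68906932.

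The other genes of the top 25 were mostly ones that many cell types express. Fth1, the heavy chain of the iron store ferritin, was at rank 3 with 22772, 22274 and 22347. B2m, the light chain shared by MHC class I molecules, was at rank 4 with 22164, 22257 and 22313, and the class I heavy chains H2-D1 and H2-K1 had means of 19729 ± 56.1 and 19479.8 ± 314. H2-D1 and H2-K1 were each ranked by a probe set that can bind related transcripts, and their paralogs cannot be told apart here. Eef1a1, the elongation factor that brings aminoacyl-tRNA to the ribosome, had a mean of 20378 ± 232, and Tpt1, a growth-related protein whose translation follows the ribosomal proteins, 19647 ± 153. Cytoskeletal genes were Actb, cytoplasmic actin (18395 ± 733), and Tmsb10, an actin-monomer binding thymosin (16737 ± 381). The ribosomal genes Rps28, Rps29 and Rps2 read 17909.6, 16559.8 and 16106, and the mitochondrial genes Atp5g3, of the ATP synthase membrane ring, and Cox6a1, of cytochrome c oxidase, read 16758 and 16136. Fibrillar collagen chains were represented by Col1a2 (16624 ± 811) and Col3a1 (16435 ± 541). Itm2b, a membrane protein of the secretory pathway, Lgals1, a galactose-binding lectin, Npc2, a cholesterol carrier of the lysosome, Mgst1, a microsomal glutathione transferase, and Selenop, the secreted selenium carrier, completed the 25 with means from 16074 to 18165.

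**Figure D1:**
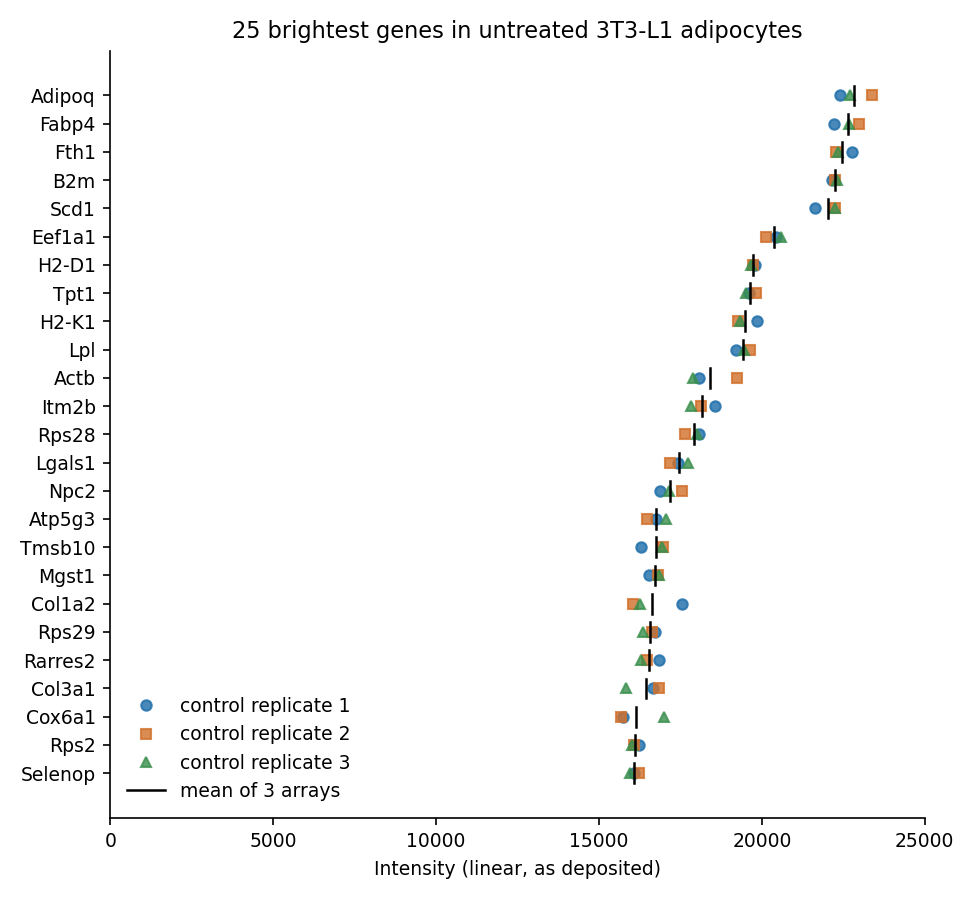
Intensity (linear, as deposited) of the 25 brightest genes in each of the 3 control arrays, with the mean as a black line. Adipoq, Fabp4, Fth1, B2m and Scd1 lie at 21637 or above in every control array, and the next gene, Eef1a1, lies between 20124 and 20578.

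Of the 100 brightest genes, 73 belonged to at least 1 of the gene lists described below and 27 to none. The 100 genes held 9.95% ± 0.0733 of the summed intensity of all ranked genes, the 10 brightest 1.46% and the 1000 brightest 42.9%. Pairs of control arrays shared 93 to 96 of their 100 brightest genes. The last genes inside the 100 were Rps26 (10910.1) and Rpl7 (10908), and the first outside were Aldoa, a glycolytic aldolase (10897), and Eef2, the translocation factor of the ribosome (10880.4). The spread of these 4 genes, 229.6 to 573, was wider than the steps between them. Of the 100 brightest probe sets of the array, 64 carried 1 symbol and 25 several. The other 11 were not listed in the annotation or had no symbol there, so the named ranking leaves out signals as bright as its top members. The brightest probe set of all, with a control mean of 25185, was not among those with 1 symbol.

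For the brightest genes the start of the gene could be read beside the signal. RefSeq promoter windows, which run from 250 bases before to 50 bases after a gene's start in GRCm38.p6, were at hand for 75 of the 100 brightest genes (99 windows, as a gene can have several starts). The 60 bases before the start are shown for Adipoq, Fth1, Eef1a1 and Tpt1, chosen from the top of the ranking because their windows cover the range from low to high CpG content, the count of C followed by G that marks CpG islands. Capitals mark the letters CCAAT or their reverse complement ATTGG, known from NF-Y sites, and GGGCGG or its reverse complement CCGCCC, known as GC boxes. Both strands were searched over the 250 bases before the start.
Adipoq, chr16:23146476-23146535, plus strand: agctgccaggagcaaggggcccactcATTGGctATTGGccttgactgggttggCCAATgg
Fth1, chr19:9980540-9980599, plus strand: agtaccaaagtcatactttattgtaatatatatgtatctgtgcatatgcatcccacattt
Fth1, chr19:9982586-9982645, plus strand: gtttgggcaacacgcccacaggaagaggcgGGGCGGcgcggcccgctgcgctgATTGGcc
Eef1a1, chr9:78481725-78481784, minus strand: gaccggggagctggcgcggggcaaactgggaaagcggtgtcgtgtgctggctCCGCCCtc
Tpt1, chr14:75845196-75845255, plus strand: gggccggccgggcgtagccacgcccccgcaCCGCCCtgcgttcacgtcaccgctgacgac

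The Adipoq window held 0 CpG dinucleotides in its 300 bases, and the windows of Eef1a1 and Tpt1 held 22 and 40. Fth1 had a start with 4 and another with 27. The windows of B2m (14) and H2-K1 (14 and 15), which are not shown, lay between these. Over all 99 windows of the 100 brightest genes the median was 19 CpG, against 16 over the 18109 windows of 14452 ranked genes and 5 over the 436 windows of the 500 dimmest genes. GGGCGG or CCGCCC was found in 47 of the 99 windows (47.5%), against 48.3% of all windows and 24.1% in the 500 dimmest. CCAAT or ATTGG was found in 35 (35.4%), against 34.7% of all windows. These shares for the 100 brightest genes were therefore near those of all genes, and the larger set of the 500 brightest genes had 22 CpG and 58.2% with a GC box. Low CpG counts also occurred at the top: 16 of the 99 windows, of 15 genes, had 5 or fewer, among them those of Col3a1, Mgst1, Selenop, Sparc, Retn, Ifit3 and Cd36. A match to these letters describes the window and does not show a bound factor.

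TATAAA at 16 to 45 bases before the start was found in 3 of the 99 windows (3.03%), against 2.32% of all windows and 5.05% in the 500 dimmest genes. The 3 genes were H2-D1, Igfbp4, a secreted binder of insulin-like growth factors, and Vim, the intermediate filament of mesenchymal cells. They are shown with Crisp3, a secreted protein of salivary gland and reproductive tract that was among the 10 dimmest genes and also has the letters, and with Vmn1r11, a pheromone receptor gene of the same dim group that lacks them. Capitals mark TATAAA alone.
H2-D1, chr17:35263034-35263093, plus strand: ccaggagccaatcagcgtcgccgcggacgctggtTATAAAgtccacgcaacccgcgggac
Igfbp4, chr11:99041184-99041243, plus strand: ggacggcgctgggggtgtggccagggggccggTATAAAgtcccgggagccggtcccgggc
Vim, chr2:13574251-13574310, plus strand: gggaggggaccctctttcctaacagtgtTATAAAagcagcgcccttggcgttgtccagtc
Crisp3, chr17:40242289-40242348, minus strand: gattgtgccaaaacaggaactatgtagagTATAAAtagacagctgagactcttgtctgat
Vmn1r11, chr6:57137293-57137352, plus strand: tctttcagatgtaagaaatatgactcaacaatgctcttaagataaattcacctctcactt

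A start of C followed by 4 pyrimidines, the pattern known from ribosomal protein messengers, was present in 8 of the 99 windows (8.08%) against 2.35% of all windows. The windows with it belonged to Rplp2, Rps10, Rps18, Rpl38 and Rpl35, and to Prnp, Col6a1 and Hmgn1. Over the whole list of cytosolic ribosomal proteins it was present in 9 of 53 windows (17.0%). Outside that list, 3 of the 75 windows of the 100 brightest genes had it (4.00%). Gene spans were short at the top of the ranking, with a median of 5322 bases for the 100 brightest genes and 20210.0 for all ranked genes with a RefSeq span, and 3551 for the ribosomal list.

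**Figure D2:**
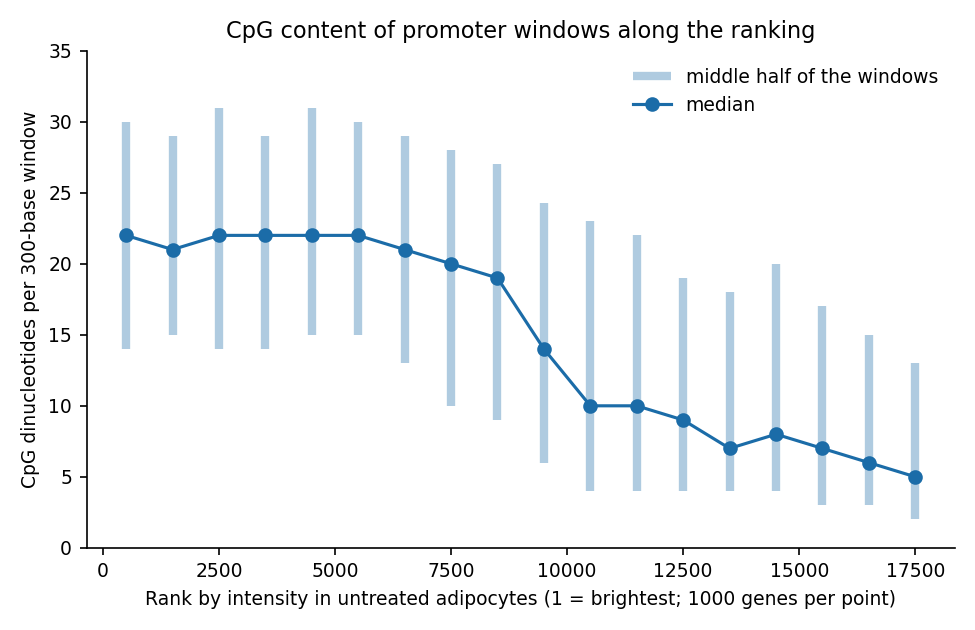
CpG dinucleotides per 300-base RefSeq promoter window along the ranking, in bins of 1000 genes, with the median as points and the 25th to 75th percentile as bars. The median is 22 for ranks 1 to 1000, 20 for ranks 7001 to 8000, 10 for ranks 10001 to 11000 and 5 for ranks 17001 to 18000.

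CpG content was level over much of the ranking and low in its dim part. The median stayed at 21 or 22 per window in each bin from rank 1 to 7000, was 14 at ranks 9001 to 10000 and did not exceed 10 in the bins from rank 10001 on. Windows with a GC box made up 58.6% of the first bin, 63.2% at ranks 4001 to 5000 and 25.9% at ranks 17001 to 18000. These are descriptions over genes, which are not replicates.

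The labelled cell type was checked against its defining markers. Of the 15 ranked genes in the list of adipokines and secreted adipocyte proteins, 7 lay in the brightest 10% of all genes (1819 genes). Besides Adipoq, Lpl and Rarres2, these included Retn, the hormone resistin, at 13316, 13564 and 13268, and Agt, angiotensinogen, at 5238, 5024 and 4650.3. The list was mixed, as its median intensity was 628 against 242 over all ranked genes. Lep, the satiety hormone leptin of white fat, read 61, 59.6 and 53.5, and Rbp4, a retinol carrier, 52.4, 57.8 and 55.5. Itln1, the adipokine omentin, read 40.5 ± 1.1. These 3 secreted products lay in the dimmest 25% of the ranking. In a bulk sample, fewer cells of a type and less RNA per cell cannot be told apart.

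Lipid droplet genes were bright in the mean, with 9 of 15 ranked members in the brightest 10% and a median intensity of 2388. Cidec, which fuses droplets, read 12789.7, 11579.6 and 12951 and stood at rank 71. The coat proteins Plin2 and Plin4 followed at 7527 ± 431 and 7331 ± 165, then Rab18, a droplet GTPase (4737), and Tmem120a, a membrane protein of fat cells (3838). Abhd5, the protein that activates triglyceride lipase, read 3499.9 ± 79.5. At the other end were Plin5, the coat protein of oxidative tissues (74.9 ± 0.0693), and Cidea, a droplet protein of brown fat (107 ± 9.45). Plin1 was not analysed here.

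Lipases were led by both enzymes of triglyceride breakdown, Pnpla2, the adipose triglyceride lipase, at 10108, 9749 and 10366, and Lipe, hormone-sensitive lipase, at 10649.5, 9056 and 9514. Gnas, the stimulatory G protein alpha subunit that couples adrenergic receptors to adenylyl cyclase, was at rank 63 (12715 ± 40.2). Prkaca and Prkar2b, subunits of the cyclic AMP-dependent kinase, read 5412 ± 78.9 and 3805 ± 28.1, and Pde3b, the phosphodiesterase through which insulin lowers cyclic AMP, 1556 ± 34.8. The lowest of the 12 ranked members were Hcar1, the lactate receptor (269 ± 51.8), and Pde3a (167 ± 4.44). The adrenergic receptors of the list were not analysed here.

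Fatty acid handling showed a few very bright genes beside many dim family members. In the list of binding, uptake and activation, 5 of 21 ranked genes were among the 100 brightest: Fabp4, Lpl, Fabp5, a fatty acid binding protein shared with skin (14910.3 ± 107), Dbi, the acyl-CoA binding protein (13262 ± 321), and Cd36, the fatty acid translocase (11708 ± 265). The remaining 16 lay below the brightest 10%, led by Acsl5, an acyl-CoA synthetase (1543 ± 21.4). The paralogs Fabp7 of brain and Fabp2 of intestine read 19.3 and 17.5. Fatty acid synthesis had 12 of 21 ranked genes in the brightest 10%. After Scd1 came Scd2, its paralog (13645 ± 297), Thrsp, a lipogenic regulator (9694 ± 468), Slc25a1, the citrate carrier (9270.3 ± 388), Fasn, the fatty acid synthase (7793 ± 847), and Acly, ATP citrate lyase (7261 ± 294). The dimmest of this list were the elongases Elovl4 (29.8) and Elovl2 (13.9). In triglyceride synthesis, with 8 of 19 in the brightest 10%, Gpd1, which makes glycerol phosphate, read 14094, 13542 and 14765, and the final acyltransferases Dgat2 and Dgat1 read 8010.0 ± 488 and 7953 ± 258. Agpat2, whose loss causes lipodystrophy, read 7845 ± 581, while Gpat2, a testis form, read 40.

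Among 22 adipogenic transcription factors, 4 were in the brightest 10%. Pparg read 7239, 7017 and 6842, and Cebpa 6901, 6512 and 6406. Cebpb, which acts early in differentiation, read 4656, 3679 and 3292 and had one of the widest spreads of the bright genes. Rxra, the partner receptor of Pparg, read 2142 ± 75.5, and Srebf1, the lipogenic SREBP gene, 1890.3 ± 19.6. Prdm16, a brown-fat determinant, and Gata3, a repressor of adipogenesis, were lowest at 96.1 and 37.1. Of 44 nuclear receptors, 4 were in the brightest 10%: Pparg, Thra, a thyroid hormone receptor (2682 ± 69.9), Nr3c1, the glucocorticoid receptor (2332 ± 94.7), and Rxra. The dimmest receptors, Hnf4g and Nr0b1, read 34.4 and 39.3.

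Insulin signalling genes were moderate, with 6 of 27 in the brightest 10% and none among the 100 brightest. Irs1, the main insulin receptor substrate of these cells, read 4684, 4492 and 4261. Sort1 (3677 ± 114) and Rab10 (3053 ± 235) serve the storage and traffic of the glucose transporter GLUT4, and Pik3r1, Akt2 and Akt1 of the kinase cascade read 2876, 2703 and 2598. Irs3, a substrate known from rodent adipocytes, was the dimmest of the list at 26, 23 and 27.7. Slc2a4, the GLUT4 gene, read 2722, 2380.2 and 2515 and was the only one of 11 ranked glucose transporters in the brightest 10%. Slc2a8, an intracellular transporter, and Slc2a1, the basal transporter GLUT1, read 1234 ± 30.1 and 720.0 ± 22.1. Slc2a2, the transporter of liver and pancreatic beta cells, read 29.8 ± 2.13.

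Mitochondrial genes were bright as groups. All 17 ATP synthase subunits lay in the brightest 10%, from 2316 (Atp5g1) to 16758 (Atp5g3), and 23 of 24 tricarboxylic acid cycle genes did, with Ogdh, a 2-oxoglutarate dehydrogenase subunit, as the exception at 1609. The list of cycle genes was led by malate dehydrogenases, the cytosolic Mdh1 (13010.1 ± 295) and the mitochondrial Mdh2 (11827 ± 228). Pcx, the pyruvate carboxylase that refills the cycle, stood between them (12519.6 ± 531). Complex I had 32 of 36 subunits in the brightest 10%, led by Ndufa1 (10634 ± 142), and complexes III and IV 18 of 26, led by Cox6a1 and Uqcrb (14867 ± 302). The dimmest in these families were Ndufb4 (114) and Ndufa4l2 (191), Cox7b2 (23.5) and the testis form Cox6b2 (48.3). Fatty acid oxidation had 15 of 21 in the brightest 10%, led by Hadh, a dehydrogenase of short-chain substrates, at 10409.8 ± 225, while Cpt1c, a brain form, read 174. Of 44 mitochondrial carriers 9 were that bright, with Slc25a5, an ADP/ATP carrier, first (13189 ± 359.6) and Slc25a31, its germ-cell paralog, last (10.3).

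Glycolysis had 8 of 20 ranked genes in the brightest 10%, led by Aldoa, Tpi1 (8929 ± 477) and Pgk1 (7859 ± 591). Their paralogs Eno2 of neurons and Pgk2 of sperm read 42.8 and 16.7. Carbonic anhydrases had 2 of 16 ranked members in the brightest 10%, led by Car3, an abundant protein of fat and muscle, at 10572, 10318 and 9927. Car5b, a mitochondrial form, was next at 1985, and the median of the list was 150.0. Cytochrome P450 genes were mostly dim, with 2 of 70 in the brightest 10%: Cyp2f2, known from lung, at 4807, 4548 and 4918, and Cyp1b1, an extrahepatic form, at 3206 ± 147.

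Cytosolic ribosomal proteins were the largest group at the top. Of 51 ranked members 25 were among the 100 brightest genes and 38 in the brightest 10%, and the median intensity was 10199. Rplp0, of the ribosomal stalk, read 15621, 15669 and 15488. The low end of the list was formed by Rps16 (36.9), Rpl39l, a testis paralog (24.4), Rpl3l, a muscle paralog (40), and Rps4l (61.6). These 4 members lie below the median of the olfactory receptors, 77.4, so this group does not read bright throughout. Probe sets with several symbols or none were left out, and whether this bears on the low Rps16 value was not tested. The list of elongation factors, which also holds Tpt1, had 7 of 8 ranked members in the brightest 10%. The exception was Eef1a2, the neuron and muscle form, at 651 ± 29.6, in contrast to Eef1a1. Proteasome subunits had 28 of 39 in the brightest 10%, with Psmb7 (8163 ± 173) and Psma3 (7938 ± 366) first and the thymus and testis forms Psmb11 (71) and Psma8 (37.1) last. Chaperones of the endoplasmic reticulum and cytosol had 15 of 19, led by Calr, calreticulin (11853 ± 442), and P4hb, a disulfide isomerase (9743 ± 145). Hspa1a, a heat-inducible chaperone, was at 10.4, 11 and 10.7, near the bottom of the ranking.

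Matrix genes were among the brightest in these cells. Of 42 collagen genes 10 were in the brightest 10%, and besides Col1a2 and Col3a1 these included the type VI chains Col6a1 (12699 ± 400.0) and Col6a2 (10458 ± 89.9), the basement membrane chain Col4a1 (8866 ± 137) and Col6a3 (7709 ± 282). The family was split, as 10 others were in the dimmest 25%, with Col6a5 (12.4) and Col24a1 (7.99) last. Other matrix genes had 16 of 35 in the brightest 10%. They were led by Sparc, a collagen-binding glycoprotein (14256 ± 588), Bgn, the proteoglycan biglycan (13751 ± 344), Dcn, decorin (8171 ± 1177), Postn, periostin (8082 ± 1336), and Mmp2, a gelatinase (6310.2 ± 348). In the cytoskeleton list 12 of 26 were that bright, and the neuronal tubulin Tubb3 read 53.4.

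Markers of preadipocytes and fibroblasts were partly bright. Of 17 ranked markers 6 lay in the brightest 10%, and the median of the list was 1308. Dlk1, the preadipocyte factor that inhibits differentiation, read 11252, 9704 and 8711. Gas1, a growth-arrest protein of fibroblasts, read 6487, 6640.1 and 6011, and Acta2, the smooth muscle actin of myofibroblasts, 3732, 3981 and 4273. S100a4 (2786 ± 74.5) and the receptor Pdgfra (2141 ± 466) followed. Cd34, a marker of adipose stromal cells, and Fap, of activated fibroblasts, read only 50 and 41.9. The summed intensity of the list was 37546 to 44422 in the control arrays, and the share of cells that had not differentiated was not tested.

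Genes induced by interferon, together with the MHC class I genes, form a list that was assembled after values had been seen. Of its 36 ranked genes 26 were in the brightest 10% and 8 among the 100 brightest. Besides B2m, H2-D1 and H2-K1 these were Ifi27l2a (14243, 15205 and 15813), Ifitm3, an endosomal barrier to viruses (15149.7, 14715 and 14526), Ly6e (13636 ± 216), Ifi27 (13629.9 ± 269) and Ifit3 (12926, 12694 and 11818). Mx1, an antiviral GTPase, and Ifitm1 were the dimmest at 453 ± 78.2 and 136 ± 10.6. Caveola genes, added in the same way, had 6 of 8 in the brightest 10%. Cav1 and Cav2, the coat proteins of these membrane pits, which are dense in adipocytes, read 14961 ± 791 and 13010.0 ± 237, whereas Cav3 and Cavin4, the muscle forms, read 109.7 and 99.8.

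Of the antioxidant and iron genes 16 of 22 were in the brightest 10%. After Fth1 came Gpx4, which removes lipid peroxides (10586 ± 591), Sod1, the cytosolic superoxide dismutase (10317 ± 77), and Mt1, a metallothionein (8160.5 ± 628). Gpx3 and Gpx2, the plasma and gut forms, read 179.5 and 142.

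Markers of other cell types were dim. None of the lists for brown adipocytes (15 ranked genes), lymphocytes (12), endothelium (11), skeletal muscle (13), hepatocytes (13), neurons (13), epithelium (11) and spermatids and germ cells (11) had a member in the brightest 10%. The brightest brown marker was Ppargc1a, a coactivator of mitochondrial genes, at 334 ± 24.3. Ucp1, the uncoupling protein that defines brown fat, read 81.2, 86.6 and 82.5, and Zic1 13.3. In endothelium Cdh5, its cadherin, read 56.6 and Egfl7, the highest, 373. Epcam, an adhesion protein of epithelium, stood out at 1159, 1293 and 1162, while Cdh1, the epithelial cadherin, read 15.7, 15 and 14.5. Of 16 macrophage and leukocyte markers 1 was in the brightest 10%: Lyz2, a lysozyme, at 2278, 2425 and 2272. Ptprc, the common leukocyte antigen CD45, read 26.5, 24.1 and 24.3, and Cd163 16.9. As a reference for genes known from sensory tissue, 76 ranked olfactory, vomeronasal and taste receptors ran from 7.43 to 365, with a median of 65.4 and a 95th percentile of 217. At or below that level were 8688 ranked genes (47.8%).

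Signalling and patterning families lay mostly in this dim range. Of 33 Hox genes, which keep positional identity, Hoxd8 alone was in the brightest 10%, at 2131, 1768 and 1819, ahead of Hoxd9 (689.6) and Hoxa5 (510.5), and Hoxc8 read 10.8. Among 31 chemokines Cxcl12, the stromal ligand of CXCR4, was bright at 9866, 9296 and 9369.8. The next was Ccl6 at 1973, 1627 and 997, and Cxcl3 was last at 8.62. No interleukin of 31 was in the brightest 10% and 22 were in the dimmest 25%; Il6 read 149.9, 160.2 and 108. Wnt ligands (19 genes) reached 495 at most, in Wnt5a, and fibroblast growth factors (22) reached 1074, in Fgf7. Keratins (44) and beta-defensins (20) had their highest members at 677 (Krt42) and 138 (Defb15).

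The 10 dimmest genes had means between 6.84 and 7.60. The lowest was Rai2, at 6.63, 6.69 and 7.19. Above it were Gje1, a connexin-like protein of the lens (7.0 ± 0.64), Ripply2, a repressor of somite formation (7.02 ± 0.27), Crisp3 (7.20 ± 0.199), Gm4871 (7.38), Vmn1r11 (7.43), 9130016M20Rik (7.49), Elapor2 (7.52), Hormad1, a meiotic chromosome protein (7.60), and Tchh, a hair follicle protein (7.60). Each of the 10 had a single probe set. The means of the 100 dimmest genes covered 6.84 to 9.50, and pairs of control arrays shared 77 to 80 of their 100 dimmest genes, fewer than the 93 to 96 at the bright end. No detection call was used here, so a value in this range is a low signal and not an absence of the transcript.

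**Figure D3:**
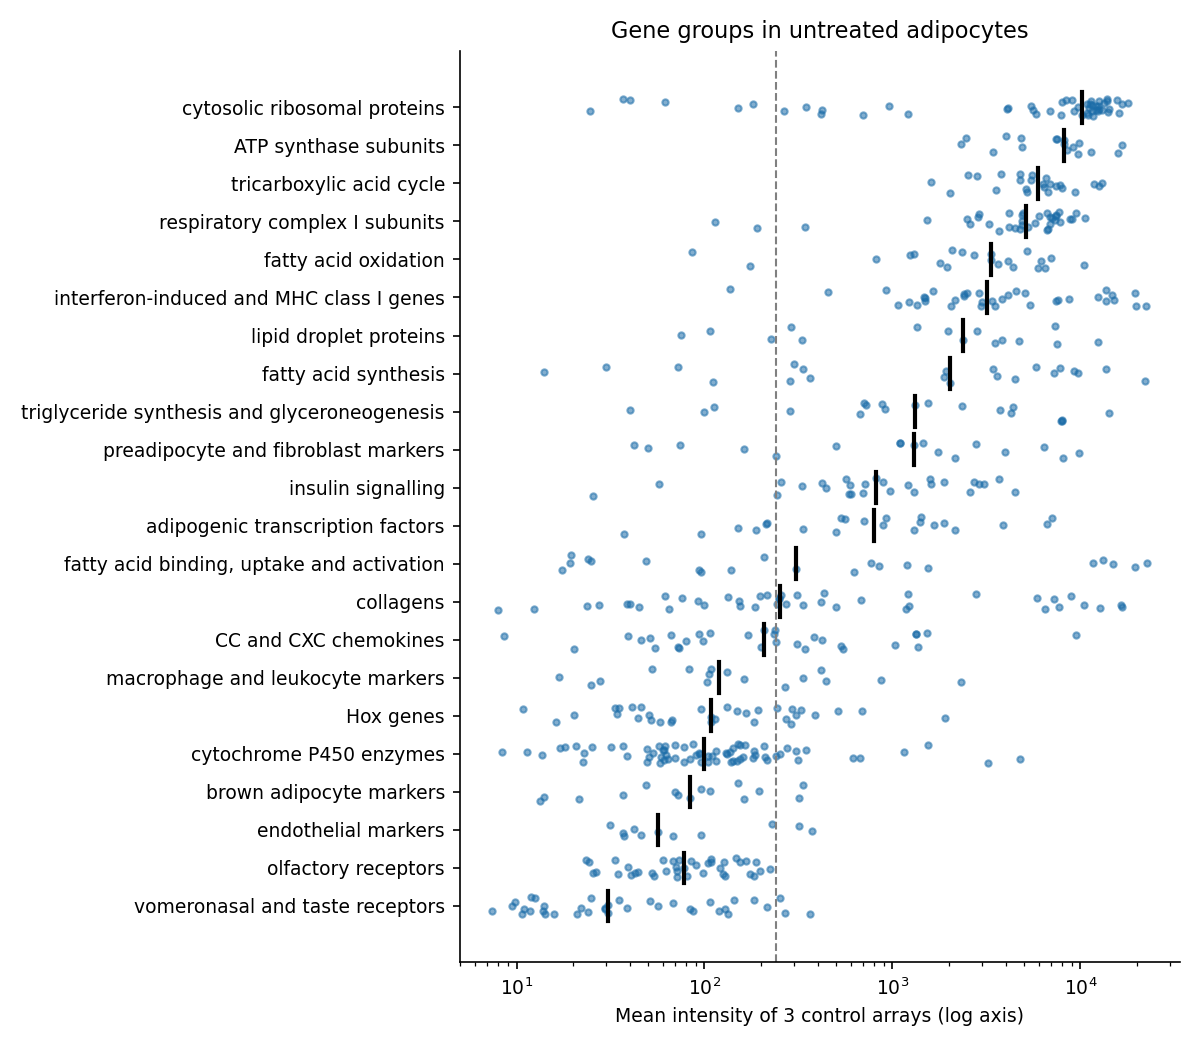
Mean intensity over the 3 control arrays (log axis) of the ranked members of selected gene lists, 1 point per gene, with the list median as a black bar and the median of all 18193 ranked genes (242) as a dashed line. Ribosomal proteins, ATP synthase and the tricarboxylic acid cycle have medians of 10199, 8162 and 5922, and olfactory receptors 77.4.

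The spread between the control arrays was small for bright genes. The median coefficient of variation (SD over mean, n = 3) was 2.13% in the 100 brightest genes, 3.54% at ranks 101 to 1000 and 5.56% beyond rank 10000. In 17 of the 1000 brightest genes the highest array exceeded the lowest by more than 1.3-fold. Control replicate 1 was the highest in 15 of the 17 and control replicate 3 the lowest in 15. The largest coefficient among the 1000 was that of ND5, a complex I subunit encoded in mitochondrial DNA, at 14099.9, 13692 and 7766 (29.9%). Its rank of 80 therefore rests on replicates 1 and 2, and without replicate 1 it leaves the 100 brightest. Pabpn1, a nuclear poly(A) binding protein, read 3097, 3215 and 5097, with replicate 3 high. Srsf5, a splicing factor, read 6552, 5516 and 3818. Neat1, a nuclear long noncoding RNA, read 4621, 4190.2 and 2943, and Sox4, a developmental transcription factor, 3926, 3424 and 2695. For these 3 genes replicate 3 was the low array. Col1a1 (8499.7, 7154 and 6047), Dlk1 and Postn, given above, also read highest in replicate 1 and lowest in replicate 3.

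**Figure D4:**
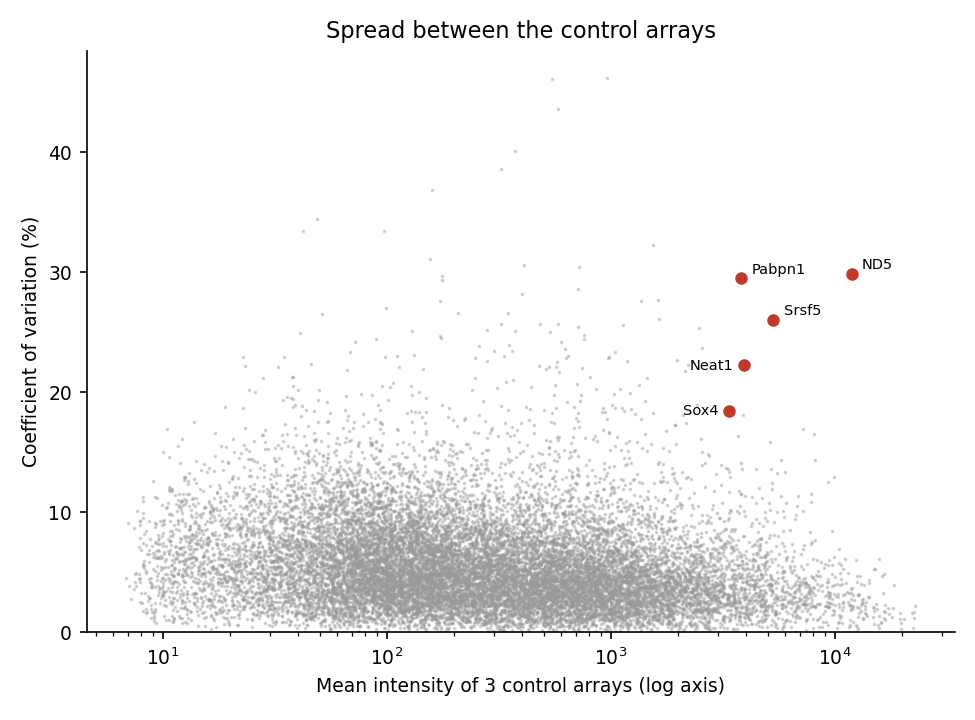
Coefficient of variation over the 3 control arrays against mean intensity (log axis) for the 18193 ranked genes, with the 5 most variable of the 1000 brightest genes in red. ND5 lies at 29.9% and Pabpn1 at 29.5%, against a median of 2.13% in the 100 brightest genes.

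How far this baseline holds under the treatments was read from the same 100 genes in the CI, TNF and DEX arrays. Tests were limma fits of log2(intensity + 16) over 15622 genes and all 11 arrays, with a call at a Benjamini-Hochberg adjusted p under 0.05, and changes are treated minus control on that log2 scale. The control arrays chose the 100 genes and also enter each contrast, and the 3 contrasts share them. All 100 genes passed the filter on dim genes. Where groups are said below not to overlap, the genes were mostly picked for the size of their change. The share of all genes without overlap was not counted. In CI 19 of the 100 were called (3 higher, 16 lower), where 17.3% of all tested genes were called (8.38% higher, 8.88% lower). Without CI replicate 2 the count was 11 (1 higher, 10 lower). Without control replicate 2 or CI replicate 1 there was likewise 1 higher call, and 2 without control replicate 1. In TNF 42 were called (14 higher, 28 lower) against a background of 25.2%, and in DEX 45 (17 higher, 28 lower) against 27.6%. Fewer higher calls passed whichever array of the contrast was left out, with 8 to 10 in TNF and 9 to 12 in DEX. In TNF they numbered 8 when control replicate 1, 2 or 3 was left out and 9 without TNF replicate 1 or 2. In DEX they numbered 11, 10 and 10 without those controls and 9 without DEX replicate 1. Each of these fits has fewer arrays, and the part of any single array was not tested. When a control array was left out, it alone chose the 100 genes. At ranks 101 to 500 the called shares were 29.5%, 45.5% and 42.0%, and beyond rank 10000 they were 5.25%, 14.7% and 13.7%. The shares in the 100 brightest thus lay above the background in TNF and DEX and near it in CI, and in TNF and DEX they were close to those of the next 400 genes.

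The median absolute log2 change of the 100 brightest genes was 0.07 in CI, 0.14 in TNF and 0.13 in DEX. At ranks 5001 to 10000 it was 0.10, 0.11 and 0.11, so the bright genes lay below that level in CI and above it in TNF and DEX. The signed median log2 change was -0.04 in CI and in TNF and 0.00 in DEX, beside 0.01, -0.01 and 0.02 over all tested genes. Only 3 of the 100 passed a 2-fold change in any treatment, all in DEX. Adipoq read 21587 and 21507 in CI, 20816, 20933 and 20921.5 in TNF and 21661, 21184 and 22089.9 in DEX. Every treated array was below every control array, but the log2 differences of -0.08, -0.13 and -0.08 did not pass (limma adjusted p of 0.344, 0.0646 and 0.264). Fabp4 differed by -0.03, -0.05 and 0.02, and its arrays overlapped with the controls in CI and DEX. Adipoq, Fabp4, Fth1 and B2m stayed within the 6 highest ranks in each group. Their values lay in the top range of the arrays, whose highest intensities were 22501 to 25933. Whether intensity still follows the amount of RNA at that level was not tested.

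In CI the 16 lower calls among the 100 brightest were headed by Igfbp7, a secreted binder of growth factors, Ifi27l2a, Prnp, the prion protein, Plaat3, an adipose phospholipase, and Ccdc80, a secreted protein of white fat. Prnp read 12069.7 and 12276 in CI against 15667, 15767 and 15657 in control (log2 change -0.37 ± 0.0531, SE, limma adjusted p = 0.00028). Ifi27l2a read 11613 and 11633 against at least 14243 in control (-0.37 ± 0.0639, adjusted p = 0.000995). The groups did not overlap for either gene. Igfbp7 read 10627 and 13752 in CI, below the lowest control of 14957 (-0.38 ± 0.0911, adjusted p = 0.0094), and without CI replicate 1 the change was -0.20 with an adjusted p of 0.204. Plaat3 and Ccdc80 changed by -0.35 ± 0.064 and -0.33 ± 0.0613 (limma adjusted p of 0.00145 and 0.00165). The 3 genes called higher were Eif5a, a translation factor (0.26 ± 0.0557, adjusted p = 0.00477), Cav1 (0.21 ± 0.0641, adjusted p = 0.0325) and Cidec (0.20 ± 0.0667, adjusted p = 0.0469).

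Cav1 lost its call when control replicate 1 (limma adjusted p = 0.119) or 2 (0.0748) was left out, and likewise for CI replicate 1 (0.162) or 2 (0.111). Cidec was lost without each of the same 4 arrays (0.0644, 0.173, 0.091 and 0.263), with no pseudocount (0.0579), after centring (0.0731) and with only the 2 groups compared (0.07). Read as whole lists, glycolysis and the proteasome stood higher in CI, where 8.38% of all tested genes were called higher. There 12 of 18 tested glycolytic genes (median 0.35) and 17 of 38 proteasome subunits (median 0.21) were called higher and 0 lower. Other bright lists also had higher calls: chaperones 7 of 18 with 0 lower (median 0.15), and lipid droplet genes 6 of 15 with 2 lower (median 0.05). Ldha, the lactate dehydrogenase of glycolytic tissue, read 7356 and 6796 against 4024, 4128 and 4398 in control (0.76 ± 0.0681, limma adjusted p = 8.74e-06), with no overlap. Pnpla2 read 6485 and 7037, below its control range of 9749 to 10366 (-0.57 ± 0.0716, adjusted p = 9.17e-05).

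Of the 15 tested preadipocyte and fibroblast markers, 8 were lower in CI and 0 higher, with a median log2 change of -0.26, where 8.88% of all tested genes were called lower. The ranked list summed to 30406 and 30558 in the CI arrays, below the 37546 to 44422 of the controls, and no marker was listed at 0. The sum of the 16 macrophage and leukocyte markers was 4677 and 5043 in CI, below the control range of 5402 to 5629, with 2 of 12 tested markers lower and 1 higher. The part of both lists in these changes was not tested. The 3' to 5' actin ratio was 1.82 in CI replicate 1 and 1.43 in CI replicate 2, against 1.49 to 1.58 in the controls, and its part was not tested either.

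Under TNF, all members of the 100 brightest from 3 lists of energy metabolism were lower, and 11 of the 25 ribosomal members were higher. All 12 members from the tricarboxylic acid cycle, complexes III and IV and ATP synthase passed as lower, with a median log2 change of -0.27, where 11.3% of all tested genes were called lower. The number was 11 or 12 over the other settings and 10 to 12 when 1 array of the contrast was left out. The 12 include Mdh1, which is cytosolic. Outside these 3 lists, the mitochondrial genes ND5 (-0.05, limma adjusted p = 0.877) and Slc25a5 (-0.13, adjusted p = 0.072) were not called. Cycs, which codes for cytochrome c, was called lower (-0.35, limma adjusted p = 0.000149). Over the whole lists, 21 of 24 cycle genes, 24 of 36 complex I subunits and 13 of 17 ATP synthase subunits were lower and 0 higher (median log2 changes -0.35, -0.23 and -0.20). In complexes III and IV 17 of 24 tested subunits were lower and 1 higher (median -0.23). Pcx read 8879.7, 7928 and 8887 against 12611, 11949 and 12999 in control (-0.55 ± 0.0606, limma adjusted p = 1.06e-05), with no overlap. The 25 ribosomal members had 0 lower calls beside the 11 higher ones, with a median of 0.13, where 13.9% of all tested genes were called higher. This count ran from 6 to 18 over the other settings, with 6 after quantile normalization, where 3 of the 25 read lower than control, and it was 6 to 8 whichever array of the contrast was left out. Rps26, a small-subunit protein, read 12588, 12628 and 12719 against 11099, 10594 and 11037 in control (0.21 ± 0.0482, adjusted p = 0.00468). Rps20, Rps24 and Rpl13a changed by 0.21, 0.20 and 0.20, and Rps14 by 0.21 (limma adjusted p = 0.017), which did not pass without control replicate 1 (0.0604) or 3 (0.0706).

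The 3 largest falls among the 100 brightest under TNF were those of Retn, Cidec and Gpd1, which belong to different lists. Of the other adipokines of the 100, Rarres2 was called higher (0.20 ± 0.0539, limma adjusted p = 0.015), and Adipoq and Lpl (-0.08, adjusted p = 0.234) were not called. Retn read 7308, 7644 and 7581 against 13316, 13564 and 13268 in control (-0.83 ± 0.0535, limma adjusted p = 4.47e-08) and dropped from rank 50 to 234. Cidec read 8212, 7862 and 7899 against 12789.7, 11579.6 and 12951 (-0.64 ± 0.0596, adjusted p = 2.02e-06). Gpd1 read 8989, 9351 and 9234 against 14094, 13542 and 14765 (-0.62 ± 0.0723, adjusted p = 1.76e-05). None of these 3 genes, picked as the largest falls, had overlapping groups. Over the 12 lipolysis genes 7 were lower and 0 higher (median -0.32), where 11.3% of all tested genes were called lower, among them Pde3b (-0.49 ± 0.0773, adjusted p = 0.000258). Cav1 fell by 0.56 ± 0.0573 and Cav2 by 0.48 ± 0.0488 (adjusted p of 5.19e-06 and 4.78e-06). The summed intensity of the preadipocyte list was 44236 to 46965 in TNF against 37546 to 44422 in control, and that of the 16 macrophage and leukocyte markers 6748 to 7194 against 5402 to 5629. Of the tested members 7 of 15 and 3 of 12 were higher, where 13.9% of all tested genes were, and 2 and 1 were lower, near the background of 11.3%. Their part in the changes was not tested. The 3' to 5' actin ratio was 1.69 in TNF replicate 3, above the controls, and 1.49 and 1.44 in the other TNF arrays, and its part was not tested.

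Under DEX the largest falls among the 100 brightest were those of Ifit3 and Ly6e, both of the interferon-induced and class I list, followed by Col3a1, Gpd1 and Col1a2. Of the 8 members of that list among the 100 brightest, 7 were called lower, with a median log2 change of -0.62, where 13.6% of all tested genes were called lower. Over the whole list, assembled after values had been seen, 32 of 36 were lower and 0 higher (median -1.36). Ifit3 read 2034, 2915 and 1927 against 12926, 12694 and 11818 in control (-2.46 ± 0.118, limma adjusted p = 6.63e-10), and Ly6e 3128, 4877 and 3327 against 13726, 13792 and 13390.3 (-1.88 ± 0.116, adjusted p = 1.09e-08). DEX replicate 2 was the highest of the 3 for both genes, and the groups did not overlap. The 3' to 5' actin ratio was 1.73 in that array, above the 1.49 to 1.58 of the controls, and within that range in the other DEX arrays, and its part was not tested. H2-D1 and H2-K1 fell by 0.30 ± 0.0473 and 0.57 ± 0.0621, and B2m by 0.16 ± 0.0476 (adjusted p = 0.0202). The member that was not called was Ifi27.

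Collagen and lipogenic genes of the 100 brightest were also lower in DEX. Col3a1 read 8039.6, 6762 and 6801 against 16659, 16828 and 15818 in control (-1.19 ± 0.068, limma adjusted p = 4.31e-09), and Col1a2 9895, 8927 and 9272 against 17551, 16048 and 16272 (-0.83 ± 0.0569, adjusted p = 3.26e-08). Col6a1 fell by 0.23. Neither Col3a1 nor Col1a2 had overlapping groups. Over the 35 tested collagen genes 14 were lower and 2 higher (median -0.11), where 13.6% of all tested genes were called lower and 14.0% higher. Gpd1 read 7361, 6790.5 and 8561 against at least 13542 in control (-0.90 ± 0.0723, adjusted p = 1.74e-07), and Scd2 and Scd1 fell by 0.82 ± 0.0648 and 0.39 ± 0.0537. The summed preadipocyte list was 29382 to 33429 in DEX, below every control array, with 5 of 15 tested markers lower and 2 higher, the latter near the background. That of the macrophage list was 4073 to 4528, with 3 of 12 tested markers lower and 1 higher. Their part in these falls was not tested.

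The DEX calls upward were mostly ribosomal: 14 of the 25 ribosomal members were higher and 0 lower (median 0.14), where 14.0% of all tested genes were called higher, and the count was 9 to 22 over the other settings and 7 to 10 whichever array of the contrast was left out. Rplp2, of the ribosomal stalk, read 16814, 17094 and 17360.2 against 14665, 13835 and 14225 (0.26 ± 0.05, limma adjusted p = 0.000991). Rps18 and Rpl41 rose by 0.21 and 0.20, and Rps14 by 0.20, which did not pass without control replicate 1 (adjusted p = 0.0873), control replicate 3 (0.0878) or DEX replicate 1 (0.0608). Cidec was also higher, at 14813, 13672 and 14929.7 (0.22 ± 0.0596, adjusted p = 0.0125). It did not pass without control replicate 2 (0.073), the array in which Cidec was lowest.

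**Figure D5:**
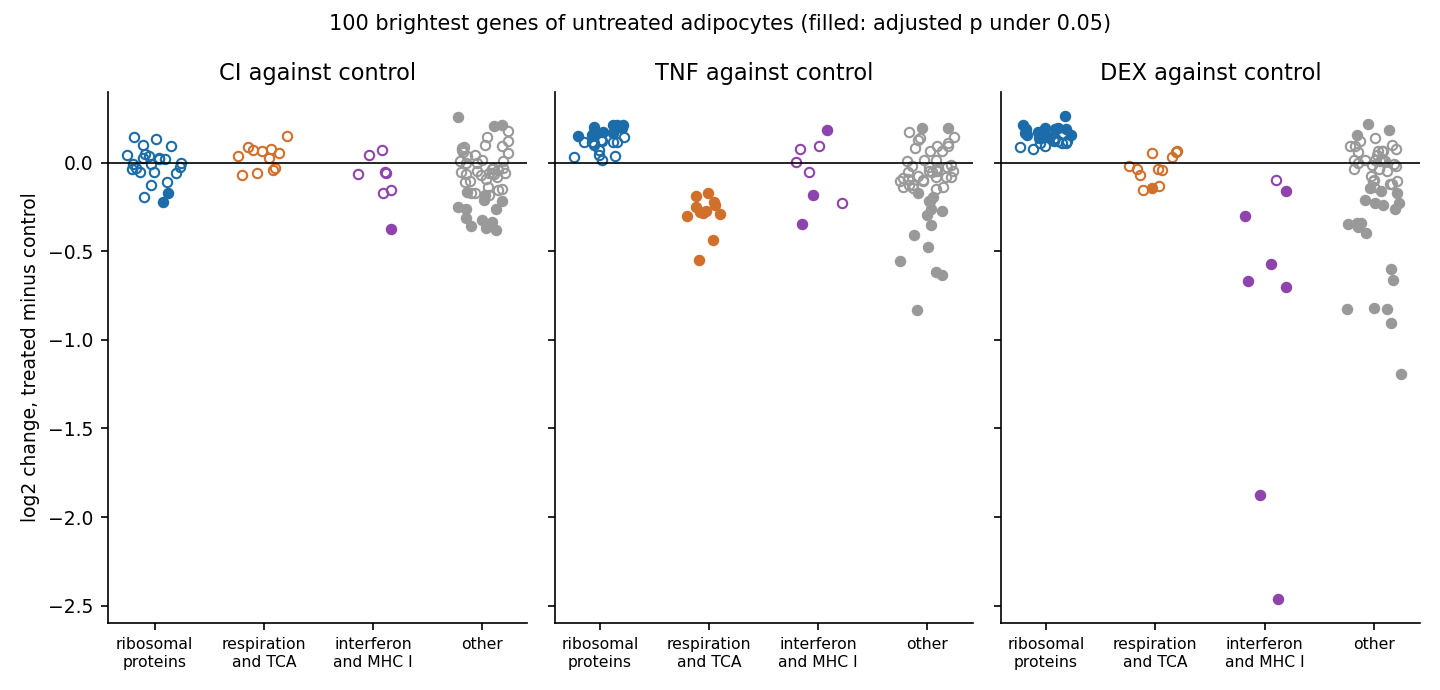
Log2 change of each of the 100 brightest genes in CI, TNF and DEX against control, grouped as ribosomal proteins, respiration and tricarboxylic acid cycle genes, interferon-induced and class I genes, and all others (filled points passed at a limma adjusted p under 0.05). The 12 respiration and cycle genes lie below 0 in TNF, and Ifit3 at -2.46 and Ly6e at -1.88 are the lowest points, in DEX.

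Of the 100 brightest control genes, 90 were also among the 100 brightest in CI, 82 in TNF and 84 in DEX. Few genes entered from far below. Saa3, an acute-phase protein, read 372, 368 and 458 in control (rank 7142) and 18293, 19250.4 and 17006.5 in TNF (rank 17; log2 change 5.46 ± 0.177, limma adjusted p = 2.31e-11). In DEX 3 genes from below rank 300 entered. Cyp2e1, an ethanol-oxidising cytochrome P450, read 991, 1241 and 1235 in control (rank 3164) and 11683, 12388 and 12557 in DEX (rank 74; 3.39 ± 0.0884, adjusted p = 9.02e-13). Agt rose from rank 484 to 32, with 15302, 15161 and 14592 in DEX (1.59 ± 0.0567, adjusted p = 2.64e-11). Txnip, a thioredoxin inhibitor of glucose uptake, rose from rank 463 to 98 (1.11 ± 0.104, adjusted p = 1.04e-06), with 12352, 9791 and 11075 in DEX. For all 4 genes the lowest treated array was above the highest control array, which largely follows from choosing them by their ranks in these arrays.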

How the data were processed

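Total RNA was measured on 11 arrays, and per the labels' protocols biotin-labelled cRNA was hybridised as Affymetrix prescribes. Linear intensity values were deposited in 1 table by the authors, with 1 column per array and 0 value columns of no sample. Background correction, summarisation and normalization are not given in the sources used here, and no further normalization was applied. No intensity is comparable in amount between probe sets. Left out were 64 probe sets that serve Affymetrix as controls. Of the rest, 34945 had 1 symbol in the platform annotation, 932 several and 9160 none. By gene identifier 34741 were matched to RefSeq, and 0 symbols changed.

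Genes were ranked by mean linear intensity over the control arrays. This ranking, and the position of each list in it, has no test. Treatments were compared with control by limma 3.58.1 in R 4.3.3 (two-sided) on log2(intensity + 16), with a mean per group over all arrays. Genes below the 25th percentile of all probe sets were left out. Fold changes on this scale understate changes of dim genes. Whether changes and spread of the brightest genes are understated near the top of the intensity range was not tested. The code was tested on simulated data. Alternatives were other means, probe sets, pseudocounts, filters and normalizations, and leaving out each array.

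The text names the 25 brightest and 10 dimmest genes, up to 6 brightest and 2 dimmest members of a list, the 5 most variable of the 1000 brightest, up to 5 changing most each way, and genes entering a treatment's 100 from below rank 300. Genes outside this rule, such as Lep, Ucp1, Col1a1, Il6, Cdh5, Rps4l, Rpl3l and some of the called changes, were chosen after their values were seen. The members and lists were chosen with earlier results of these data known, and the interferon and caveola lists after values were seen. Some genes are not reported here.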

Additional observations from a re-analysis of the deposited data

How the results depend on the processing

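The 100 brightest genes were the same 100 with a geometric mean and after quantile normalization, 71 of them remained when all probe sets of a gene were averaged, 80 without _x_at and _s_at probe sets, and 98 to 99 without 1 control array. The share of summed intensity held by the 100 was 11.02% with averaged probe sets, 10.3% without _x_at and _s_at probe sets, and 9.92% to 9.99% without 1 control array. Higher calls numbered 5 in CI with a pseudocount of 64, 5 after quantile normalization and 6 with averaged probe sets. In TNF they numbered 24, 7 and 26 under those settings, and in DEX 11 with only the 2 groups compared and 26 with averaged probe sets. Without 1 array, CI had 11 to 17 calls (1 to 3 higher, 10 to 14 lower), TNF 31 to 37 (8 to 10 higher, 23 to 29 lower) and DEX 32 to 37 (9 to 12 higher, 22 to 25 lower). The cause of these shifts was not tested. Medians of 13 list positions moved, 6 with averaged probe sets and 7 without _x_at and _s_at probe sets. Of the 100 brightest genes, those with the largest called changes, up to 5 each way per treatment, were read in each treatment under all settings. Other genes named in the text are not part of these counts. The status, called or not called, was the same as in the fit described above for 955 of these values. Of the rest, 39 lost a call, 18 gained one, and 0 called changes reversed in sign. For the promoter windows, settings added after seeing the data gave a median CpG of 19 with 1 window per gene and 22 for the 500 brightest genes.

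Replicate numbers were not used as pairs in the fit described above. Over 15 pairs of same-numbered arrays the correlation of deviations from the group means ran from -0.29 to 0.34 (median 0.02), and 6 exceeded 0.1. Over 30 pairs with other numbers it ran from -0.35 to 0.29 (median -0.00028), and 8 exceeded 0.1. Whether same-numbered arrays share a source of spread was not tested. With the replicate number as a block, 17 of the 100 brightest genes were called in CI (3 higher, 14 lower), 42 in TNF (14 higher, 28 lower) and 44 in DEX (16 higher, 28 lower). The number of arrays, 2 or 3 a group, limits the precision.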
